A study of Drosophila melanogaster with 48 samples.

Results

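The chitin genes of *Drosophila melanogaster* were followed through metamorphosis in *Ptth* mutants and wild type. They were chosen by name from the expression table: every gene whose name starts with Cht and a number, Idgf, obst-, Cda and a number or Peritrophin, together with *kkv*, *knk*, *mmy*, *serp*, *verm* and *Gasp*. The rule found 35 of the 17558 genes in the table. They comprised 3 genes of chitin synthesis and organization, 5 chitin deacetylases, 9 obstructor-type chitin-binding genes (*Gasp* among them), 3 peritrophins, 10 chitinases and 5 imaginal disc growth factors (Idgf). Of the 35, 33 reached at least 3 FPKM (reads scaled to gene length and library size) in some library and were tested among 12282 such genes. *obst-I* reached at most 0.167 FPKM, and *Peritrophin-15b* had 0 reads in each of the 48 libraries, which allows up to 3 reads in a library. *Cht3* is listed under its name in the expression table and is called *Cht10* in the current annotation.

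Chitin is a polymer of N-acetylglucosamine that stiffens the insect cuticle and the tracheae and lines the gut as part of the peritrophic matrix. The sugar is activated to UDP-N-acetylglucosamine, polymerized by a membrane-bound chitin synthase, organized and partly deacetylated outside the cell, and held by proteins with chitin-binding domains. At each molt and at metamorphosis chitinases and hexosaminidases break down the old cuticle while the epidermis secretes the next one, under the control of ecdysone, the steroid hormone whose synthesis PTTH stimulates.

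Poly(A) RNA of whole animals was sequenced at 8 stages in both genotypes, with 3 biological replicates of about 15 pooled animals per group and 48 libraries in all. The labels name the lines ptth120BC2 and wOB, and the design text speaks of *Ptth* mutants and wild type. The sex of the pooled animals was not given. Last-instar larvae were collected early (L3E) and late (L3L), at 96 h and 120 h after egg laying in *Ptth* mutants, and at 72 h and 96 h in wild type. White prepupae (WP), pupae of 1, 2, 3 and 4 days (P1 to P4) and adults 1 to 3 h after emergence (A0) followed. A label of stage therefore compares larvae that differ by 24 h in age, and the genotype and that difference in age cannot be told apart at L3E and L3L. In whole animals, fewer cells of a type and less RNA per cell cannot be told apart either.

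Depth was 17346100 to 29784621 reads on genes in *Ptth* mutant libraries and 16712549 to 26091126 in wild-type libraries. The *Ptth* gene itself still had reads in mutants (0.12 to 4.97 FPKM in *Ptth* mutants and 0 to 3.42 FPKM in wild type), so its level does not check the labels. The replicates of WT L3E stood furthest apart of all groups, and replicate 3 held 5272 summed FPKM of larval fat body markers, against 1915 and 1945 in replicates 1 and 2. The sum of the male dosage-compensation RNAs *roX1* and *roX2* was 0.239 to 1.67 FPKM in *Ptth* mutants and 0.201 to 0.32 FPKM in wild type at A0, and at least 27.2 FPKM in every library of the earlier stages.

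The chitin genes were used in waves. Nearly all were expressed in larvae, most fell at the white prepupa, few stood high at P1, and a large cuticle set returned at P2. The number of the 35 genes with a mean under 1 FPKM was 3, 3, 8, 10, 8, 11, 10 and 10 from L3E to A0 in *Ptth* mutants, and 4, 3, 9, 11, 9, 9, 9 and 10 in wild type. The median of the 35 means was lowest at P1, at 7.4 FPKM in *Ptth* mutants and 7 FPKM in wild type. Of the 33 tested genes, 22 had their highest mean at the same stage in both genotypes, a count with no share of all genes beside it. For some genes the libraries of the highest and the next stage overlapped, so that the order was not settled. *Peritrophin-15a* in wild type, for example, had means of 1380 FPKM at L3L and 1375 FPKM at L3E.

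**Figure D1:**
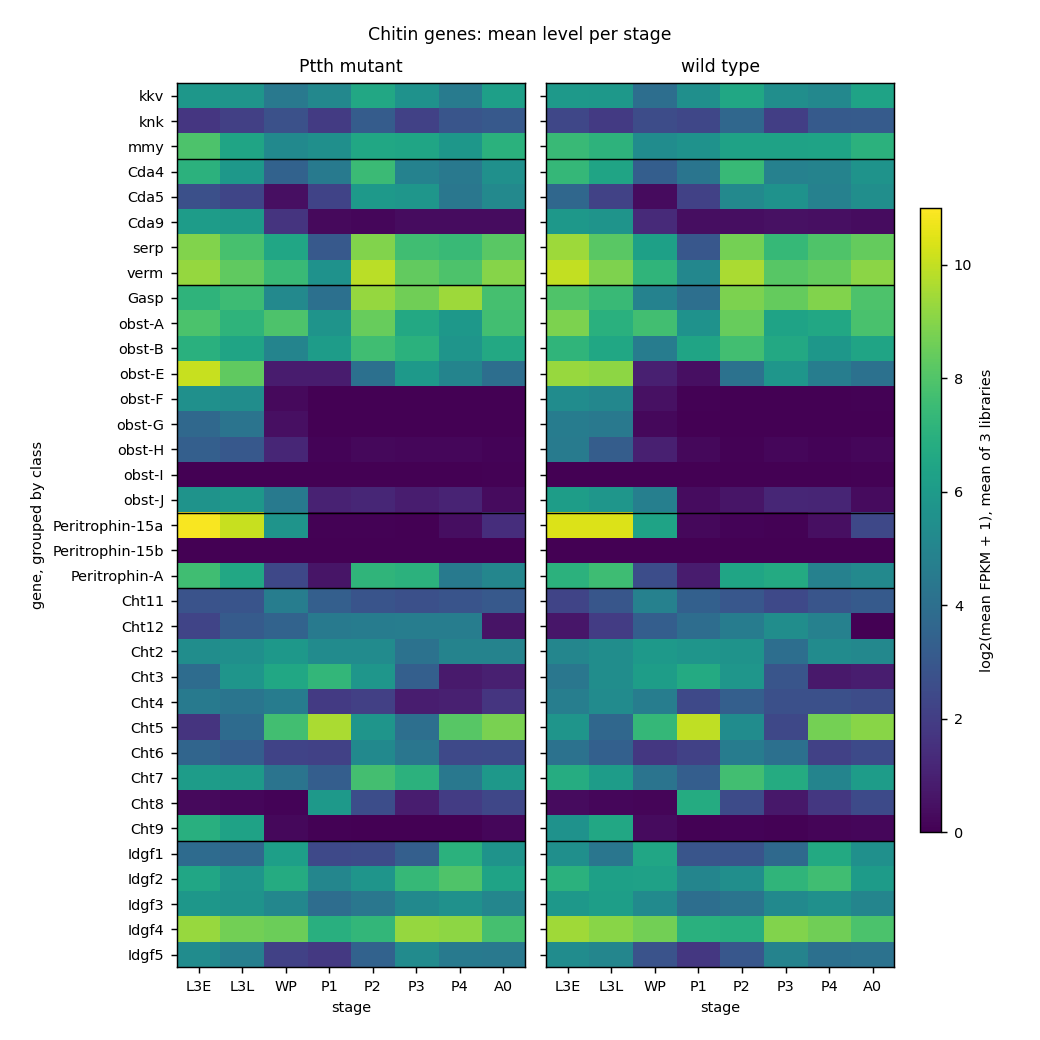
Mean level of the 35 chitin genes, log2(mean FPKM + 1) of 3 libraries, by stage (horizontal axis) and gene (vertical axis, lines between classes) in *Ptth* mutants (left) and wild type (right). Both maps show the same waves: larval genes such as *obst-F* and *Cht9* go dark from WP on, *Cht5*, *Cht3* and *Cht8* are bright at P1, and *serp*, *verm*, *Gasp* and *Cht7* return at P2.

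The supply of the sugar is represented by *mmy*, the UDP-N-acetylglucosamine pyrophosphorylase, and its polymerization by *kkv*, the chitin synthase of the epidermis and tracheae. *mmy* (FBgn0259749, chromosome 2L, 6468538 to 6473904, BDGP6) was highest in early larvae, at 254, 243 and 226 FPKM in *Ptth* mutants and 210, 160 and 159 FPKM in wild type. In late larvae it stood at 79.4, 85.8 and 91.2 FPKM in *Ptth* mutants and 139, 146 and 130 FPKM in wild type, so that the mutants were the higher genotype at L3E and the lower one at L3L, with no overlap at either. It was lowest at WP, with means of 35.9 ± 2.27 FPKM in *Ptth* mutants and 39.8 ± 1.99 FPKM in wild type (SD, n = 3 each). *kkv* (FBgn0001311, chromosome 3R, 5378093 to 5392866) was also lowest at WP, at 23.5, 18.6 and 20.5 FPKM in *Ptth* mutants and 13.8, 15.9 and 15.1 FPKM in wild type. It was highest at P2, at 91, 93.9 and 101 FPKM in *Ptth* mutants and 95.9, 94.4 and 90.1 FPKM in wild type, and second highest at A0, where no library of either genotype overlapped with P2. The genotypes were thus level at the top of the *kkv* course. *knk*, Knickkopf, which protects and organizes newly made chitin in the procuticle, was low throughout. Its highest mean was at P2, with 7.51, 8.24 and 8.53 FPKM in *Ptth* mutants and 12.3, 13.3 and 9.64 FPKM in wild type, without overlap but with an adjusted p of 0.0716.

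The deacetylases *serp* and *verm*, secreted enzymes best known for setting the length of tracheal tubes, were abundant and moved together. *verm* (FBgn0261341, chromosome 3L, 19690033 to 19695260) and *serp* (FBgn0260653, 19700977 to 19708015) lie 5716 bp apart on the same strand with 0 genes between them. In early larvae *verm* stood at 566, 643 and 628 FPKM in *Ptth* mutants and 1172, 1004 and 841 FPKM in wild type, and *serp* at 488, 500 and 460 FPKM in *Ptth* mutants and 845, 642 and 494 FPKM in wild type. At P1 *serp* was down to 7.95, 7.01 and 7.23 FPKM in *Ptth* mutants and 7.04, 7.11 and 6.87 FPKM in wild type, the lowest level of its course. *verm* kept 48.9, 48.2 and 45 FPKM at P1 in *Ptth* mutants and 34.3, 33.3 and 31.7 FPKM in wild type. A day later, at P2, *serp* had 509, 465 and 488 FPKM in *Ptth* mutants and 418, 331 and 497 FPKM in wild type. *verm* had 970, 891 and 925 FPKM in *Ptth* mutants and 770, 636 and 924 FPKM in wild type at P2. The larval and the P2 levels of both genes in wild type overlapped, while *verm* in *Ptth* mutants was higher at P2 than at L3E without overlap.

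The other deacetylases differed in course. *Cda4* was lowest at WP and highest at P2, with a mean of 177 ± 7.05 FPKM in *Ptth* mutants and 167 ± 42 FPKM in wild type at P2 (SD, n = 3 each). *Cda5* was nearly silent at WP, at 0.418, 0.265 and 0.416 FPKM in *Ptth* mutants and 0.171, 0.241 and 0.288 FPKM in wild type. It stood at 61.2, 59 and 64.5 FPKM in *Ptth* mutants and 37.6, 28.8 and 39.2 FPKM in wild type at P2, without overlap. *Cda9* was a larval gene, at 58.8 to 75.3 FPKM in the 6 larval libraries of *Ptth* mutants and 48.7 to 62.8 FPKM in those of wild type, and no higher than 0.558 FPKM in *Ptth* mutants and 0.524 FPKM in wild type from P1 on.

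The obstructor genes encode secreted proteins with chitin-binding domains, and they split into cuticle genes that returned in the pupa and genes that did not. *Gasp* (FBgn0026077, chromosome 3R, 6088799 to 6100887), which is needed for the tracheal and cuticular chitin layer, had its lowest mean at P1, with 17.8, 15.8 and 12.9 FPKM in *Ptth* mutants and 15.3, 15.7 and 14.4 FPKM in wild type. At P2 it stood at 653, 573 and 611 FPKM in *Ptth* mutants and 479, 340 and 542 FPKM in wild type, and its level stayed high up to P4. *obst-A*, a scaffold protein of the cuticle, was highest in wild type at L3E and had 231, 241 and 236 FPKM in *Ptth* mutants, against 498, 462 and 388 FPKM in wild type there, without overlap. *obst-E* (FBgn0031737, chromosome 2L, 5762553 to 5766142), whose product shapes the contraction of the larval cuticle at pupariation, had 1298, 1062 and 882 FPKM in *Ptth* mutants and 717, 526 and 660 FPKM in wild type at L3E. At WP it was almost gone, at 0.544, 0.658 and 1.15 FPKM in *Ptth* mutants and 0.811, 0.945 and 1.14 FPKM in wild type. *obst-E* came back at P3 to 57.4, 58.4 and 58.9 FPKM in *Ptth* mutants and 51.8, 57.1 and 55.2 FPKM in wild type, far under its larval level.

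A set of 7 genes was expressed in wild-type larvae and low at every stage from P1 on. *Cda9*, *obst-F*, *obst-G*, *obst-H*, *obst-J*, *Peritrophin-15a* and *Cht9* had a wild-type mean of at least 20 FPKM at L3E or L3L and under 5 FPKM at every stage from P1 on, limits that were chosen after the values were seen. In *Ptth* mutant larvae *obst-G* (10.4 to 19.1 FPKM) and *obst-H* (6.5 to 9.57 FPKM) stayed under 20 FPKM. *Peritrophin-15a* (FBgn0040959, chromosome 2L, 8395665 to 8396096), one of the small chitin-binding proteins named for the peritrophic matrix of the gut, had the highest FPKM of all 35 genes, at 925 to 2233 FPKM in the larval libraries of *Ptth* mutants and 1218 to 1534 FPKM in those of wild type. From P1 on its highest value was 1.9 FPKM in *Ptth* mutants and 9.41 FPKM in wild type, that of wild type in replicate 1 of A0. The midgut markers, 10 digestive enzyme genes, shared the fall at WP with this set but not the rest of its course. Their sum was 37756 to 53123 FPKM in *Ptth* mutants and 19596 to 26216 FPKM in wild type at L3E. At L3L it was 41493 to 44253 FPKM in *Ptth* mutants and 33176 to 37274 FPKM in wild type. At WP it was 2485 to 3045 FPKM in *Ptth* mutants and 2158 to 2357 FPKM in wild type. It stayed under 9 FPKM from P1 to P3 in all libraries, and was 857 to 1096 FPKM in *Ptth* mutants and 711 to 1194 FPKM in wild type at A0, highest in the same replicate 1 of wild type. Their part in the course of the larval set was not tested. *Peritrophin-A* was not part of this set. It had 0.459, 0.629 and 0.553 FPKM in *Ptth* mutants and 0.871, 0.706 and 0.835 FPKM in wild type at P1, and stood at 162, 127 and 143 FPKM in *Ptth* mutants and 92.1, 56.5 and 110 FPKM in wild type at P2.

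Among the chitinases, *Cht5* (FBgn0038180, chromosome 3R, 13767549 to 13770732), a chitinase of cuticle turnover at the molt, reached the highest FPKM. At P1 it had 747, 782 and 784 FPKM in *Ptth* mutants and 967, 1039 and 963 FPKM in wild type. At P3 it had 14.5, 20.4 and 11.2 FPKM in *Ptth* mutants and 4.6, 4.42 and 3.79 FPKM in wild type, and at P4 374, 206 and 276 FPKM in *Ptth* mutants and 405, 467 and 375 FPKM in wild type. *Cht5* therefore had a first peak at P1 and a second rise before emergence. *Cht3*, a large chitinase with several catalytic domains, shared the first peak, at 160, 156 and 153 FPKM in *Ptth* mutants and 110, 99.1 and 101 FPKM in wild type at P1, but not the second, with at most 0.747 FPKM in *Ptth* mutants and 0.685 FPKM in wild type at P4. *Cht8* was nearly a P1 gene: it had 59, 58 and 60.2 FPKM in *Ptth* mutants and 113, 118 and 95.2 FPKM in wild type at P1, and its next highest mean, at P2, was 5.11 ± 5.09 FPKM in *Ptth* mutants and 4.75 ± 2.99 FPKM in wild type (SD, n = 3 each).

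*Cht7*, the membrane-associated chitinase of the family, went the other way and followed *serp* and *verm*. It was lowest at P1, at 7.73, 9.91 and 8.29 FPKM in *Ptth* mutants and 9.43, 8.57 and 8.09 FPKM in wild type, and highest at P2, at 207, 207 and 211 FPKM in *Ptth* mutants and 203, 197 and 202 FPKM in wild type. The genotypes overlapped at P1, and at P2 the mutants lay just above wild type without overlap. *Cht6* was also highest at P2, *Cht2* and *Cht11* were highest at WP in both genotypes, and *Cht9* was part of the larval set.

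The imaginal disc growth factors are secreted relatives of chitinases that lack a catalytic residue, and they were named for their effect on cultured disc cells. *Idgf4* (FBgn0026415, chromosome X, 9927973 to 9930948) was high at every stage. It was lowest at P1 in *Ptth* mutants (124, 121 and 122 FPKM) and lay close to that at P1 in wild type (124, 128 and 119 FPKM), and at P3 it was back at 634, 621 and 558 FPKM in *Ptth* mutants and 469, 509 and 478 FPKM in wild type. *Idgf1*, *Idgf2* and *Idgf3* stand in a row on chromosome 2L (16445278 to 16455194) with gaps of 536 and 398 bp, on the same strand. Their courses were not the same. *Idgf1* had 60, 68.5 and 88.1 FPKM in *Ptth* mutants and 97.6, 89.6 and 85.1 FPKM in wild type at WP, then 4.63, 4.7 and 3.8 FPKM in *Ptth* mutants and 7.05, 5.97 and 6.32 FPKM in wild type at P1. At P4 *Idgf1* was highest, at 110, 143 and 129 FPKM in *Ptth* mutants and 119, 85.4 and 98.9 FPKM in wild type. *Idgf2* was highest at P4 too, at 212, 309 and 231 FPKM in *Ptth* mutants and 236, 155 and 198 FPKM in wild type. *Idgf3* was highest in larvae and had the narrowest range of the 5 Idgf genes in wild type, its highest mean being 4.74 times its lowest in wild type, against 16.3 times for *Idgf1* and 6.31 times for *Idgf2*.

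**Figure D2:**
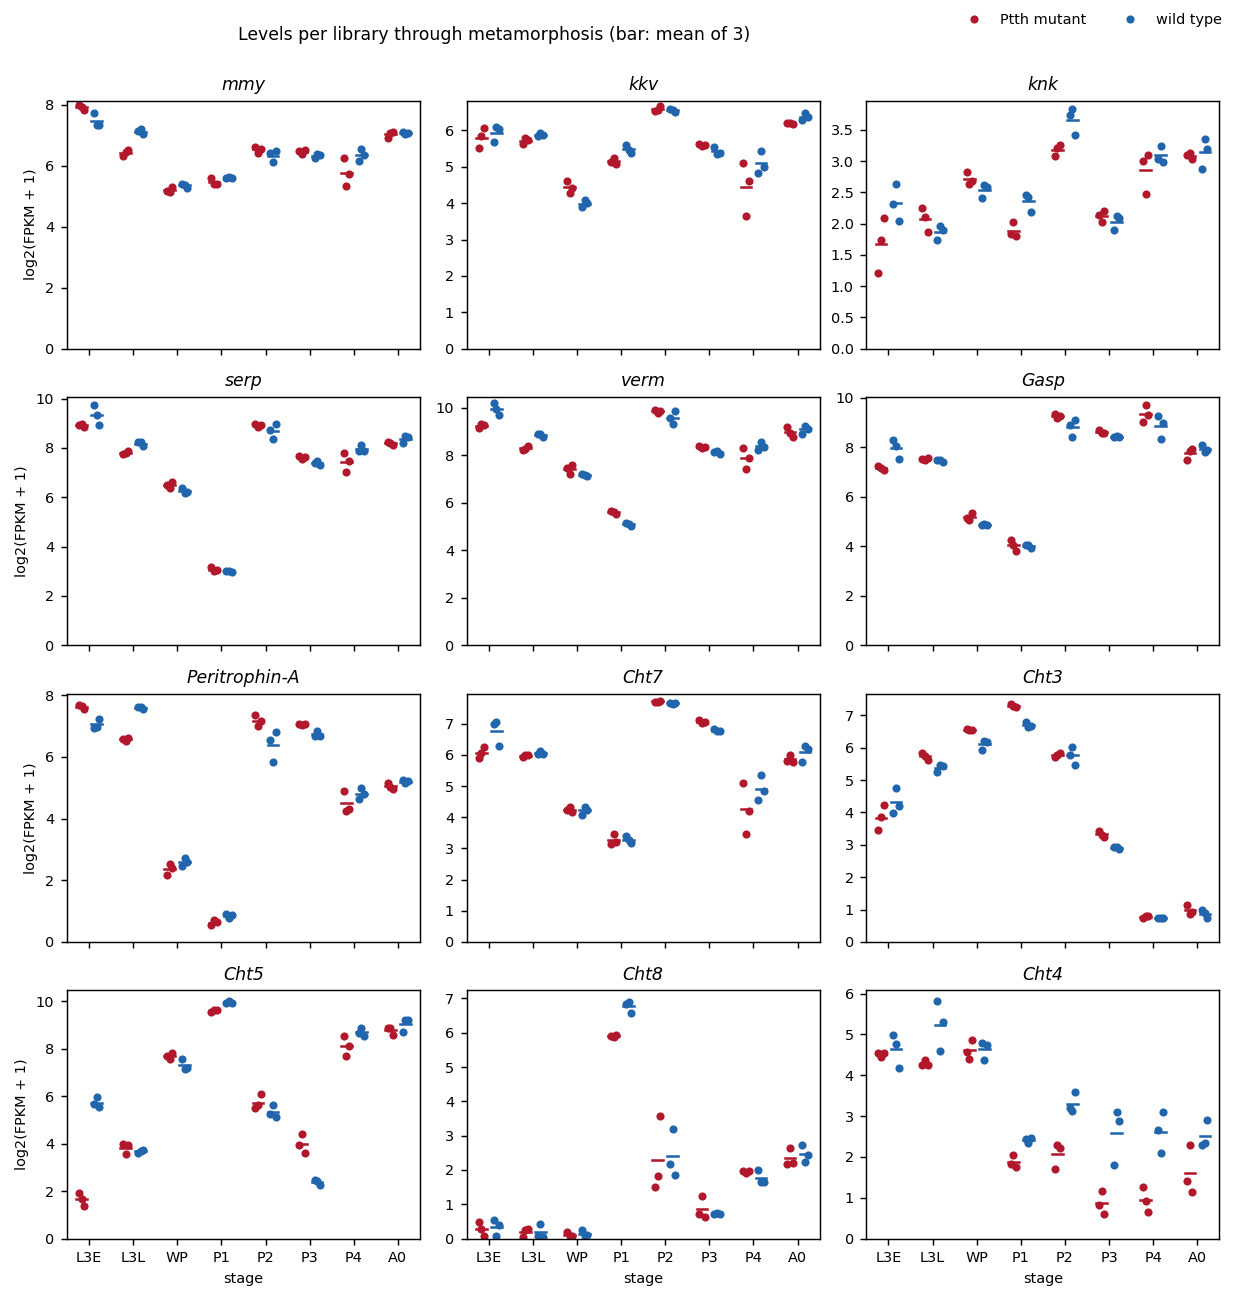
Level of 12 chitin genes in every library, log2(FPKM + 1) on the vertical axis and stage on the horizontal axis, with *Ptth* mutants (red) left of wild type (blue) and bars for the mean of 3 libraries. *serp*, *verm*, *Gasp*, *Peritrophin-A* and *Cht7* are lowest at P1 where *Cht5*, *Cht3* and *Cht8* are highest, and the *Cht4* points of *Ptth* mutants lie below those of wild type from P1 to A0.

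The steps between neighbouring stages were tested in wild type with limma on log2(FPKM + 1), and a gene was called where the p adjusted over all 12282 genes was under 0.05 and the change above 2-fold. From L3E to L3L 10 of 33 chitin genes were called (19.9% of all genes tested), 3 higher and 7 lower at L3L (9.37% and 10.5% of all genes). *Cht5*, *obst-A*, *Cda5*, *obst-H*, *Idgf1*, *serp* and *verm* fell by 2.04 to 1.09 on the log2 scale, while *Cht12*, *Cht3* and *Cht9* rose by 1.30 to 1.06. At WP against L3L 24 of 33 were called (32% of all genes), and 20 of them fell (15.3% of all genes fell) while 4 rose (16.7% of all genes rose). The median log2 change was -1.77 over the 33 and 0.0665 over all genes tested. All 5 deacetylases, 7 of 8 obstructors and both peritrophins fell. *obst-E* fell by 8.16 (SE 0.07, adjusted p = 4.6e-08), *Cht9* by 6.24 (SE 0.16, adjusted p = 9.32e-07) and *Peritrophin-A* by 5.01 on the log2 scale (SE 0.073, adjusted p = 1.82e-07). *Cht5* (log2 change 3.62), *Idgf1* (2.22), *Cht11* (1.86) and *Cht12* (1.30) were the 4 that rose. All 10 midgut markers fell at this step, and their part in the counts was not tested.

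At P1 against WP 18 of 33 were called (16.1% of all genes), 13 of them lower (10.2% of all genes) and 5 higher (5.95%). All 5 Idgf genes, both peritrophins, *serp* and *verm* fell, and *Cht8* rose by 6.64 on the log2 scale (SE 0.1, adjusted p = 5.19e-07), with *Cht5* (2.65), *Cda5* (1.83), *obst-B* (1.80) and *kkv* (1.49). The turn came at P2. Against P1, 16 of 33 were called (15.4% of all genes), and 14 of these rose (11.4% of all genes rose). They held 4 of 5 deacetylases, 4 of 8 obstructors, *kkv* and *knk*, led by *serp* with a log2 change of 5.68 (SE 0.15, adjusted p = 7.12e-06), *Peritrophin-A* with 5.54 (SE 0.25, adjusted p = 2.84e-05) and *Gasp* with 4.79 (SE 0.18, adjusted p = 1.62e-05). The 2 that fell (3.99% of all genes fell) were *Cht5* and *Cht8*, with log2 changes of -4.63 (SE 0.14) and -4.37 (SE 0.36). *Cht3*, the other chitinase highest at P1, was not called at this step (log2 change -0.95).

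At P3 against P2 15 of 33 were called (15.3% of all genes), 4 higher and 11 lower (10.4% and 4.84% of all genes). *Cht5*, *Cht3*, *Cda4* and *obst-A* fell by 2.92, 2.85, 2.55 and 2.03 on the log2 scale, and *Idgf4*, *Idgf5*, *Idgf2* and *obst-E* rose by 2.04 to 1.64. At P4 against P3 10 were called (19.5% of all genes), 5 in each direction (12.3% of all genes higher and 7.24% lower), with *Cht5* rising by 6.30 (SE 0.1, adjusted p = 2e-07) and *Idgf1* by 2.91. At A0 against P4 6 were called (22.2% of all genes), 3 in each direction (2.64% higher and 19.5% lower). *obst-A*, *kkv* and *Cht7* rose by 1.28 to 1.16, and *Cht12*, *Idgf2* and *Idgf1* fell by 4.80, 1.62 and 1.20 on the log2 scale. Both *roX1* and *roX2* were called lower at this step. Their sum in wild type was 31.2 to 41 FPKM at P4 and 0.201 to 0.32 FPKM at A0. Stage and a difference in the sex of the pools cannot be told apart at this step, for the chitin genes or for all genes. The share of chitin genes called was above that of all genes at 6 of the 7 steps, furthest at WP (72.7%), and under it at A0 (18.2%).

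Part of the other genes of the pathway changed at the steps to WP and P2 in wild type. A list of 12 further genes held makers of UDP-N-acetylglucosamine (*Gfat1*, *Gfat2*, *nst*, *CG1969*), the gut chitin synthase (*CS-2*), organizers of chitin (*rtv*, *CG13183*, *CG13188*), the deacetylase-like *ChLD3* and 3 hexosaminidases (*Hexo1*, *Hexo2*, *fdl*), and all 12 were tested. At WP against L3L 5 of 12 fell and 0 rose (15.3% and 16.7% of all genes), among them *Gfat1*, the first enzyme of the hexosamine pathway, with a log2 change of -1.32 (adjusted p = 3.85e-06). At P2 against P1 6 of 12 rose and 1 fell (11.4% and 3.99% of all genes). *ChLD3* rose by 4.29 (adjusted p = 1.52e-06) and *Gfat1* by 2.31 (adjusted p = 4.67e-05), while *CS-2* fell by 1.89 on the log2 scale (adjusted p = 7.62e-05).

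Between genotypes chitin genes were called about as often as all genes. Over the 8 stages 7 of 33 were called at least once, against 24.8% of all genes tested. From WP on 2 of 33 were called, *Cht4* and *Cht5*, against 7.03% of all genes. A chitin gene was called 11 times in all, 7 of these at L3E or L3L. The shares of chitin genes called there were 15.2% and 6.06%, against 17.2% and 10.8% of all genes. In a set of 33, 1 gene is 3.03%, so these shares are coarse. At A0, WP and P1 none was called.

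**Figure D3:**
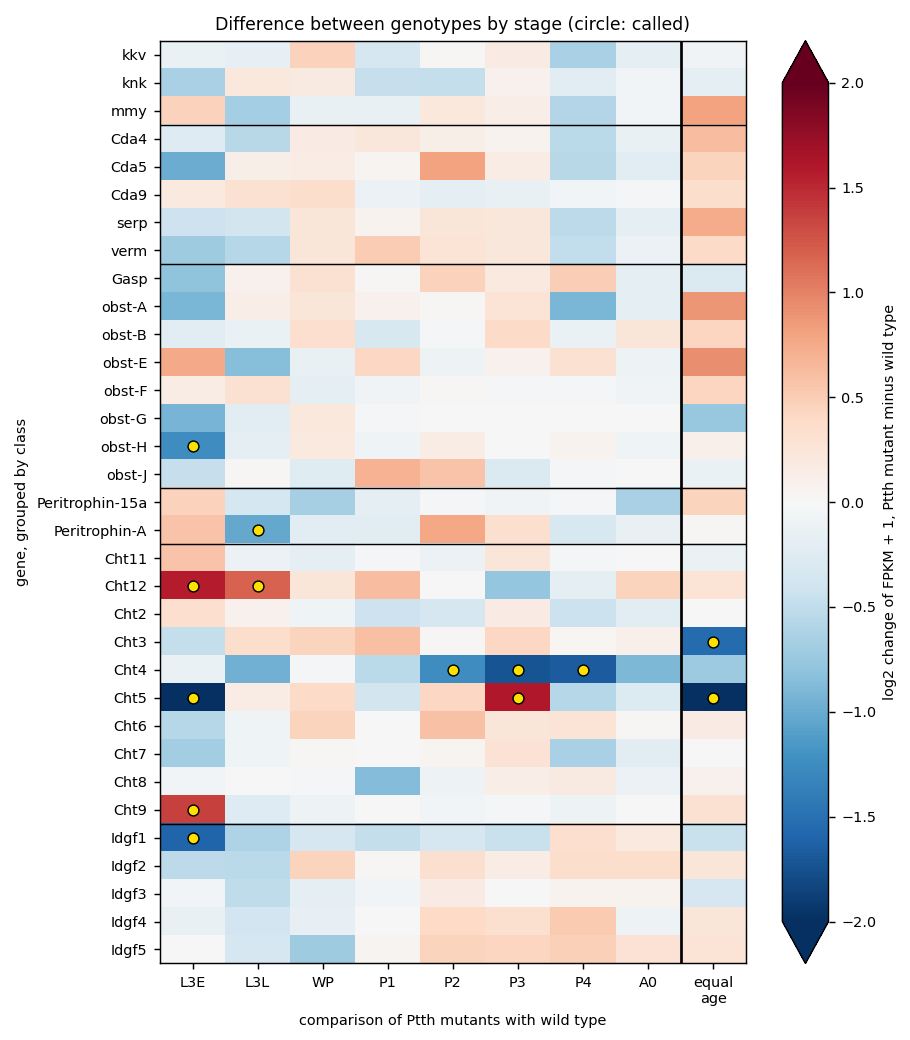
Log2 change of FPKM + 1, *Ptth* mutants minus wild type (colour, red higher and blue lower in mutants), for the 33 tested chitin genes (vertical axis, lines between classes) at each stage and for larvae of equal age (right column). Yellow circles mark the 13 calls, which sit in L3E, L3L, the pupal *Cht4* and *Cht5* cells and the right column. The colour scale ends at 2 in either direction, and *Cht5* at L3E lies beyond it at -4.06.

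At L3E 5 of 33 chitin genes were called (17.2% of all genes tested), 3 of them lower (6.78% of all genes) and 2 higher (10.4%) in the mutants. *Cht5* had 2.79, 2.18 and 1.61 FPKM in *Ptth* mutants, against 49.2, 61.2 and 45.7 FPKM in wild type. The groups lay far apart, with a log2 change of -4.06 (SE 0.18, adjusted p = 0.000199). *Idgf1* had 14.7, 13.2 and 12.6 FPKM in *Ptth* mutants, against 51.7, 40.3 and 38.3 FPKM in wild type, a log2 change of -1.61 (SE 0.13, adjusted p = 0.00065). *obst-H*, a larval obstructor gene, had 8.24, 9.57 and 8.97 FPKM in *Ptth* mutants, against 26.9, 24.3 and 17.3 FPKM in wild type, a log2 change of -1.24 (SE 0.17, adjusted p = 0.00334). *Cht9* went the other way, with 176, 96.2 and 94.7 FPKM in *Ptth* mutants and 69.5, 40.3 and 31.9 FPKM in wild type, a log2 change of 1.37 (SE 0.38, adjusted p = 0.0337). Leaving out any 1 library other than replicate 1 of WT L3E ended this call (adjusted p up to 0.101). *Cht12*, under the 10 FPKM set for listing all libraries and shown because it was called in both larval stages, had 4.7, 3.19 and 3.25 FPKM in *Ptth* mutants and 0.788, 0.419 and 0.532 FPKM in wild type, a log2 change of 1.57 (SE 0.16, adjusted p = 0.00122). Without replicate 3 of WT L3E 7 genes were called (17.6% of all genes), with *Cda5*, *Gasp* and *obst-A* added and *Cht9* lost.

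Below 2-fold, a further 10 chitin genes had an adjusted p under 0.05 at L3E, 15 with the calls, against 41.9% of all genes tested. Among them *obst-A* had a log2 change of -0.92 (adjusted p = 0.00176), *Gasp* of -0.80 (adjusted p = 0.025), *verm* of -0.70 (adjusted p = 0.0128) and *obst-E* of 0.76 (adjusted p = 0.0253). Several cell-type lists differed at this stage. All 5 larval fat body genes were called higher in *Ptth* mutants, with a sum of 30600 to 34163 FPKM in *Ptth* mutants and 1915 to 5272 FPKM in wild type. The 5 salivary glue genes were called higher too, at 87.7 to 134 FPKM in *Ptth* mutants and 1.97 to 2.9 FPKM in wild type, as were 3 of 10 midgut markers. Their part in the larval differences was not tested. Of the 12 other pathway genes *Hexo2*, a hexosaminidase, was higher (log2 change 1.19, adjusted p = 0.000315) and *ChLD3* was lower in *Ptth* mutants (log2 change -2.23, adjusted p = 0.00559). 0 of the 12 were called at the other 7 stages or at equal age.

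At L3L 2 of 33 were called (10.8% of all genes), *Cht12* higher (8.17% of all genes) and *Peritrophin-A* lower (2.64%) in the mutants. *Peritrophin-A* (FBgn0022770, chromosome X, 20244647 to 20248203) had 95.7, 91.1 and 97.1 FPKM in *Ptth* mutants, against 196, 197 and 187 FPKM in wild type, a log2 change of -1.02 (SE 0.036, adjusted p = 0.000283). Its distance from the 2-fold limit was small, and without replicate 2 of *Ptth* L3L the change was just inside 2-fold. *Cht12* had 9.18, 8.43 and 6.05 FPKM in *Ptth* mutants and 2.89, 2.35 and 3.47 FPKM in wild type, a log2 change of 1.18 (SE 0.18, adjusted p = 0.00495). Without replicate 2 of WT L3L *Cht4* was called as a further gene, with a log2 change of -1.27. In all, 15 chitin genes had an adjusted p under 0.05 (44.4% of all genes), 11 of them lower in *Ptth* mutants (20% of all genes were lower). These 11 included *obst-E* with a log2 change of -0.85 (adjusted p = 0.000786), *mmy* with -0.69 (adjusted p = 0.00149), *Cda4*, *serp*, *verm*, *kkv* and Idgf1 to Idgf4.

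The direction of several genes thus differed between the larval stages, and the test of that difference was the interaction of genotype with the step from L3E to L3L, fitted over all 48 libraries. It called 8 of 33 chitin genes (13.1% of all genes tested), 4 with a positive difference (6.43% of all genes) and 4 with a negative one (6.72%). *Cht5* had a log2 step from L3E to L3L of 2.17 in *Ptth* mutants and -2.04 in wild type, a difference of 4.21 (SE 0.26, adjusted p = 1e-15). At L3L it stood at 14.7, 10.9 and 14.2 FPKM in *Ptth* mutants and 11.2, 12 and 12.2 FPKM in wild type, where the groups overlapped. *Cht9* had a step of -0.56 in *Ptth* mutants and 1.06 in wild type, a difference of -1.62 (SE 0.25, adjusted p = 2.27e-06). *obst-E* had 294, 307 and 337 FPKM at L3L in *Ptth* mutants and 558, 581 and 547 FPKM in wild type, so that its step was -1.77 in *Ptth* mutants and -0.16 in wild type, a difference of -1.61 (SE 0.2, adjusted p = 2.42e-08). *Peritrophin-A* had 206, 199 and 185 FPKM at L3E in *Ptth* mutants and 123, 125 and 150 FPKM in wild type, with steps of -1.05 in *Ptth* mutants and 0.55 in wild type, a difference of -1.59 (SE 0.2, adjusted p = 5.01e-08). The others were *mmy* (-1.15), *Cda5* (1.12), *obst-A* (1.05) and *obst-H* (1.05). For the next step, to WP, the interaction called 0 of 33 (7.82% of all genes) by limma on log2(FPKM + 1). By limma-voom on recovered reads it called 1, *obst-G* (5.65% of all genes). By limma 14 of 33 had an unadjusted p under 0.05, a count with no share of all genes beside it.

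**Figure D4:**
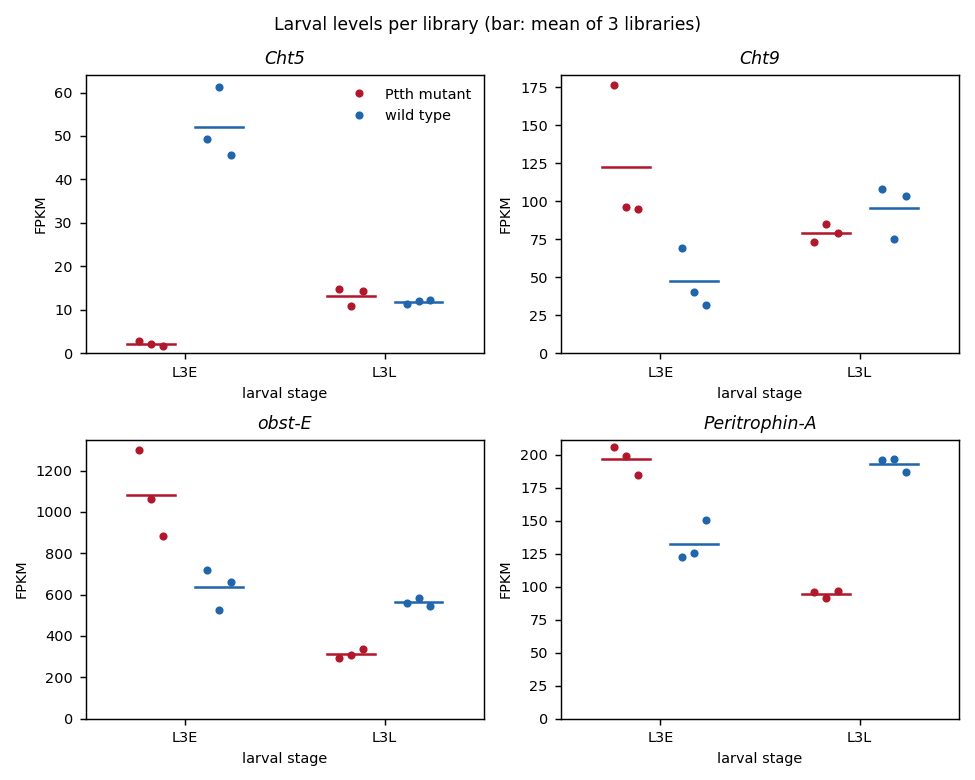
FPKM of *Cht5*, *Cht9*, *obst-E* and *Peritrophin-A* in the larval libraries (points, bars for the mean of 3), *Ptth* mutants (red) left of wild type (blue) at each stage. At L3E *Cht5* is at 1.61 to 2.79 FPKM in *Ptth* mutants and 45.7 to 61.2 FPKM in wild type, and the genotypes are level at L3L, whereas *obst-E* and *Peritrophin-A* change which genotype is the higher.

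Because mutant larvae of a stage were 24 h older, *Ptth* L3E was also compared with WT L3L, both at 96 h after egg laying. These comparisons share the libraries of the stage comparisons above. The study set L3E and L3L by the time left before pupariation. At equal age the mutants were thus at the earlier stage, and genotype and stage cannot be told apart. Called were 2 of 33 chitin genes (3.81% of all genes, 2.59% higher and 1.22% lower), both lower in *Ptth* mutants and both chitinases of the P1 peak. *Cht3* (FBgn0250907, chromosome 2L, 22999574 to 23025915) had 10, 13.4 and 17.7 FPKM in *Ptth* mutants, against 37, 43.2 and 41.9 FPKM in wild type, a log2 change of -1.54 (SE 0.2, adjusted p = 0.00632). *Cht5* had 2.79, 2.18 and 1.61 FPKM in *Ptth* mutants, against 11.2, 12 and 12.2 FPKM in wild type, a log2 change of -2.02 (SE 0.15, adjusted p = 0.00133). At any fold, 13 chitin genes had an adjusted p under 0.05 (21.8% of all genes). Of these, 7 were higher (14.3% of all genes) and 6 lower (7.53%) in *Ptth* mutants. Cuticle and synthesis genes were among the higher ones: *obst-E* with a log2 change of 0.93 (adjusted p = 0.0113), *obst-A* with 0.89 (adjusted p = 0.000973), *mmy* with 0.80 (adjusted p = 0.00163) and *serp* with 0.74 (adjusted p = 0.00227). All 5 glue genes were called lower in *Ptth* mutants at equal age, with a sum of 87.7 to 134 FPKM in *Ptth* mutants and 6281 to 6814 FPKM in wild type, and their part in these values was not tested.

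In the pupa the chitinase *Cht4* (FBgn0022700, chromosome 2R, 21065379 to 21067087) stood lower in *Ptth* mutants. It was also below the 10 FPKM set for listing all libraries and is given because it was the gene called most often over the 8 stages. *Cht4* had 2.25, 3.91 and 3.65 FPKM in *Ptth* mutants, against 8.21, 7.74 and 11.1 FPKM in wild type at P2, where it was the 1 chitin gene called of 33 (1.17% of all genes, 0.578% higher and 0.594% lower), with a log2 change of -1.24 (SE 0.21, adjusted p = 0.0322). At P3 it had 0.762, 1.26 and 0.506 FPKM in *Ptth* mutants, against 2.48, 7.54 and 6.35 FPKM in wild type, a log2 change of -1.73 (SE 0.37, adjusted p = 0.03). At P4 it had 1.41, 0.886 and 0.577 FPKM in *Ptth* mutants, against 5.27, 3.3 and 7.56 FPKM in wild type, a log2 change of -1.67 (SE 0.28, adjusted p = 0.0466), the 1 call at that stage (1.03% of all genes, 0.529% higher and 0.505% lower). The log2 change of *Cht4* was negative at all 8 stages, from -1.73 to -0.0225. Each of these calls was fragile. Leaving out any 1 library ended the calls at P2 (adjusted p 0.0624 to 0.0898) and P4 (adjusted p 0.0626 to 0.157), and leaving out replicate 1 or 2 of *Ptth* P3 or replicate 2 or 3 of WT P3 ended the call at P3 (adjusted p up to 0.105).

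*Cht5* at P3 was the other pupal call, of 2 among 33 (3.12% of all genes, 0.651% higher and 2.47% lower), higher in *Ptth* mutants at the trough of its course, with a log2 change of 1.60 (SE 0.21, adjusted p = 0.0143) and the values given above. Leaving out replicate 1 of *Ptth* P3 or any replicate of WT P3 ended this call (adjusted p up to 0.0717). A small excess ran through other genes at that stage. At P3 15 chitin genes had an adjusted p under 0.05 at any fold (26.4% of all genes), and 13 of them were higher in *Ptth* mutants, where 9.79% of all genes were higher. *obst-B*, *Cht3*, *Idgf5*, *Peritrophin-A*, *Cht7*, *serp*, *verm* and *Gasp* were among them, with log2 changes between 0.43 and 0.19.

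At P1 0 of 33 were called (2.38% of all genes, 1.51% higher and 0.871% lower) by limma on log2(FPKM + 1). By limma-voom on recovered reads 1 was called (5.92% of all genes). It was *obst-J*, with 0.986, 0.954 and 1.22 FPKM in *Ptth* mutants and 0.363, 0.102 and 0.348 FPKM in wild type. By limma 16 had an unadjusted p under 0.05, a count with no share of all genes beside it. At any fold, 13 had an adjusted p under 0.05 (36.7% of all genes). The P1 chitinases moved apart below 2-fold. *Cht8* was lower in *Ptth* mutants, with a log2 change of -0.86 (SE 0.083, adjusted p = 0.00249), and *Cht5* was lower with -0.36 (adjusted p = 0.00673), whereas *Cht3* was higher with 0.59 (SE 0.048, adjusted p = 0.00181). At WP 0 of 33 were called (1.56% of all genes, 0.668% higher and 0.896% lower) by limma and 0 by limma-voom (2.96% of all genes). There 13 had an unadjusted p under 0.05, again with no share of all genes beside it. At any fold, 2 had an adjusted p under 0.05 (8.26% of all genes). At A0 0 of 33 were called (0.448% of all genes, 0.261% higher and 0.187% lower) by limma and 0 by limma-voom (0.594% of all genes). There 4 had an unadjusted p under 0.05, also with no share of all genes beside it. At any fold, 0 had an adjusted p under 0.05 (0.79% of all genes).

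The libraries of P4 spread widely in the cuticle genes. Replicate 2 of the *Ptth* mutants was lowest of all 6 libraries for *kkv* (33.3, 11.4 and 23.6 FPKM in *Ptth* mutants and 27.6, 42.5 and 31.2 FPKM in wild type), for *obst-A* (93, 20.7 and 60.2 FPKM in *Ptth* mutants and 82.5, 114 and 86.9 FPKM in wild type) and for *Cht7* (33.4, 9.99 and 17.6 FPKM in *Ptth* mutants and 22.4, 39.7 and 27.8 FPKM in wild type). It was highest for *Gasp*, at 514, 843 and 633 FPKM in *Ptth* mutants and 611, 322 and 499 FPKM in wild type. Replicate 2 of wild type took the opposite place for each of the 4 genes. The sum of the yolk protein genes *Yp1*, *Yp2* and *Yp3* was 261, 40.5 and 182 FPKM in *Ptth* mutants and 104, 195 and 140 FPKM in wild type, lowest in the same mutant replicate and highest of the wild-type ones in the same wild-type replicate. At P4 1 of 33 chitin genes was called (1.03% of all genes), and the part of this spread in that count was not tested.

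A cluster of 4 chitinase genes lies on chromosome 2R. *Cht8* (21061646 to 21063212, plus strand), *Cht12* (21063178 to 21064986), *Cht4* and *Cht9* (21067992 to 21069286) follow each other with 0 genes between them, the last 3 on the minus strand. *Cht8* and *Cht12* overlap by 35 bp at their ends on opposite strands, and whether reads were counted by strand was not given in the sources used here, so reads in those bases cannot be assigned to either. *Cht8* was highest at P1 and *Cht9* in larvae, each in both genotypes. *Cht12* had its highest mean at P3, at 21.2, 20.4 and 30.5 FPKM in *Ptth* mutants and 45.2, 35.8 and 43.6 FPKM in wild type, a log2 change of -0.78 (SE 0.17, adjusted p = 0.0325), and was nearly absent at A0, at 0, 0.0233 and 1.53 FPKM in *Ptth* mutants and 0, 0 and 0.0371 FPKM in wild type.

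*Cht12* is shown beside the male transcripts, which differed between genotypes at some of the same stages. At L3L the sum of *roX1* and *roX2* was 74.2, 66.3 and 55.2 FPKM in *Ptth* mutants, where *Cht12* was higher, and 34.1, 31.1 and 48.5 FPKM in wild type, and the libraries of each genotype had the same order for both. At P3 the sum was 32, 37.8 and 55.4 FPKM in *Ptth* mutants, where *Cht12* was lower, and 73.8, 71 and 80 FPKM in wild type. At P2 the sum was 29.1 to 52.2 FPKM in *Ptth* mutants and 41.2 to 67.2 FPKM in wild type. *Cht12* stood at 18.5 to 31.2 FPKM in *Ptth* mutants and 19.1 to 27.8 FPKM in wild type at that stage. In wild type the male sum was 27.2 to 33 FPKM at L3E and 31.2 to 41 FPKM at P4. *Cht12* in wild type was at 0.419 to 0.788 FPKM at L3E and 24.2 to 33.4 FPKM at P4. At A0 the 1 library with 1.53 FPKM of *Cht12* was also the one with the highest male sum, 1.67 FPKM. The 3 libraries of a group had the same order for *Cht12* as for the male sum in 8 of 16 groups. Over all genes tested the median was 2 groups and the 95th percentile 9. Over the other chitin genes tested the median was 1 group and the highest 7. At L3E the male sum was 46.2, 34.9 and 34.4 FPKM in *Ptth* mutants and 30.4, 27.2 and 33 FPKM in wild type, without overlap, and neither *roX1* nor *roX2* was called. The part of the sex of the pooled animals in the *Cht12* values was not tested.

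**Figure D5:**
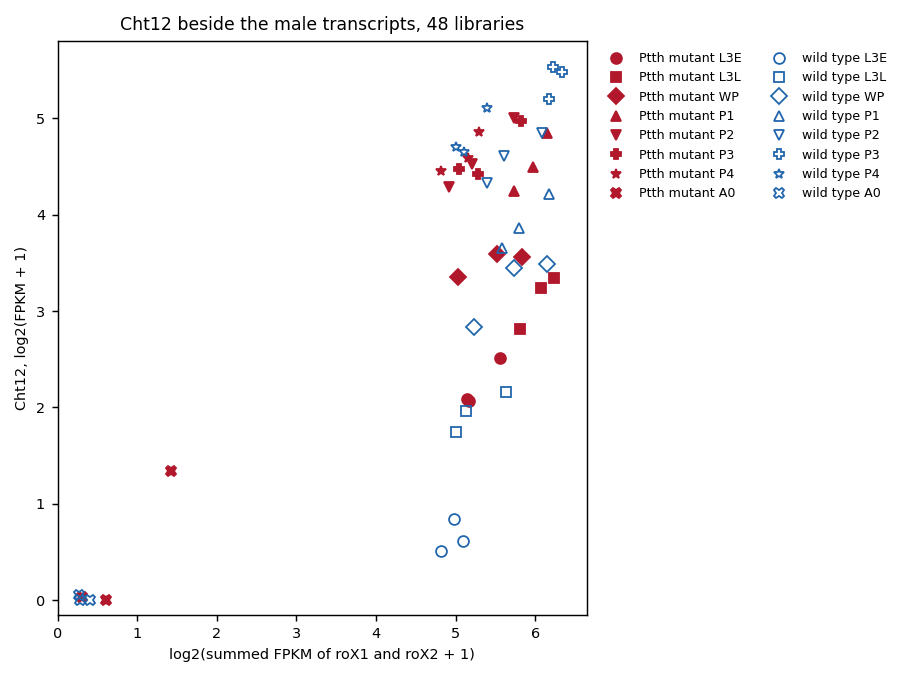
*Cht12*, log2(FPKM + 1), against the summed FPKM of *roX1* and *roX2* on the same log2 scale in the 48 libraries, with *Ptth* mutants in filled red and wild type in open blue symbols, 1 shape per stage. The 6 A0 libraries lie at the lower left, where the 1 mutant library with 1.53 FPKM of *Cht12* stands apart, and within L3E and within L3L the libraries of *Ptth* mutants lie above those of wild type.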

How the data were processed

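The processed values were 1 table of FPKM that the authors deposited for 17558 genes in 48 libraries. Every column was mapped to a genotype and stage by its label, and 0 columns were unmapped. Upstream steps are described in 2 ways. The submitters' processing notes name HISAT2 2.0.5, featureCounts 1.5.0-p3 and BDGP6, whereas the study's methods name Fastx, STAR, htseq-count and DESeq2. How reads of close relatives and of the opposite strand were counted was not given in the sources used here. Each value times gene length and 1 size per library gave whole reads (100.0% within 0.001 read), so depth could be recovered. The implied sizes carry a composition scaling that cannot be separated from the values.

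Tests used limma 3.58.1 in R 4.3.3 (lmFit and eBayes with trend, two-sided) on log2(FPKM + 1), a scale that understates changes of low genes. They ran on the 6 libraries of each comparison and, for interactions, on all 48, over the 12282 genes with at least 3 FPKM in some library, with Benjamini-Hochberg adjustment. P-values measure the spread between pools of animals. Called genes had more than a 2-fold change together with an adjusted p below 0.05. The same code was also run on simulated data with a preset spread between replicates. That run does not measure how the calls hold at the spread of these libraries. Alternatives were a pseudocount of 0.1, no filter, quantile normalization, limma-voom on recovered reads, a replicate block, 1 fit over all 48 libraries and leaving out each library. Figures were drawn in matplotlib 3.10.9, from tables written with pandas 2.3.3 and numpy 2.4.6 under Python 3.11.15.

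All libraries were listed for up to 4 called genes of largest change per comparison with a group mean of at least 10 FPKM, for *kkv*, *knk*, *mmy*, *serp*, *verm*, *Gasp* and the 2 most abundant members of each class, and for the 4 largest interactions. Other genes listed were chosen after their values were seen. The members and lists were chosen with earlier results of these data known. Gene coordinates are those of the table and equal Ensembl release 115 for all 35 genes.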

Additional observations from a re-analysis of the deposited data

Results flagged for a closer look

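For 8 chitin genes the change from L3E to L3L differed between *Ptth* mutants and wild type by the interaction test (limma over 48 libraries). The difference in log2 change, mutant step minus wild-type step, was 4.21 for *Cht5*, -1.62 for *Cht9*, -1.61 for *obst-E*, -1.59 for *Peritrophin-A*, -1.15 for *mmy*, 1.12 for *Cda5*, 1.05 for *obst-A* and 1.05 for *obst-H*. The adjusted p was 2.7e-06 for *mmy*, 0.00512 for *Cda5*, 0.0112 for *obst-A* and 7.93e-05 for *obst-H*, and those of the other 4 are given above. For *Cht5*, *Cht9* and *Peritrophin-A* the step itself had opposite signs in the genotypes. *mmy* had a step of -1.49 in *Ptth* mutants, against -0.34 in wild type. *Cda5*, *obst-A* and *obst-H* had smaller steps in *Ptth* mutants, -0.33, -0.76 and -0.28, against -1.44, -1.81 and -1.34 in wild type. The larvae compared differ in age by 24 h at both ends of the step, and genotype and age cannot be told apart here.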

How the results depend on the processing

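No result reversed under any alternative. Of 13 genotype calls, 6 held under every other setting and 7 with any 1 library left out. Of 99 calls over the wild-type steps, 88 and 89 did, and of 8 interaction calls 4 held under every other setting and 5 with any 1 replicate number left out of all groups. Quantile normalization moved the median of all genes at A0 against P4 to 0.365 (-0.0441 before). At P2 against P1 it moved to -0.117 (0.0898 before) and at P3 against P2 to -0.044 (0.0982 before). This setting gave 0 calls at L3L (*Peritrophin-A* -0.61, *Cht12* 0.93), where 7.24% of all genes were called. It gave 1 at P1 (*Cht8* -1.08), with 3.1% of all genes. In wild type 6 were called for L3L against L3E (16.3% of all genes) and 11 for A0 against P4 (33.3%). For the larval interaction 5 were called (10.2%). A pseudocount of 0.1 gave 1 call at P1 (5.2% of all genes), 0 at P4 (1.23%) and 1 for the interaction at WP (7.98%). Limma-voom gave 6 calls at L3E (26.3% of all genes) and 1 at P1 (5.92%). It gave 10 for the larval interaction (17.2%) and 1 for the interaction at WP (5.65%). For P1 against WP in wild type, limma-voom and the pseudocount of 0.1 each gave 25 calls (18 before). The share of all genes called rose there too, to 25.8% and 24.1% (16.1% before). For P3 against P2 in wild type, limma-voom gave 18 calls (15 before), with 21% of all genes called (15.3% before). Without the filter 1 was called at P3 and 0 at P4 (2.01% and 0.551% of all genes then tested). The cause of these shifts was not tested.

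Leaving out 1 library gave 4 to 7 calls at L3E (15.3% to 17.6% of all genes). At L3L it gave 1 to 3 (8.69% to 12.4%), and at P2 0 to 0 (0.358% to 0.977%). At P3 it gave 0 to 2 (0.814% to 8.09%), and at P4 0 to 0 (0.44% to 0.765%). At equal age it gave 2 to 3 (3.44% to 4.27%). Leaving out 1 replicate number in all groups gave 7 to 10 for the larval interaction (11.4% to 15.8%). For the interaction at WP it gave 0 to 1 (3.46% to 8.17%). Among interactions, *Cda5* was lost without replicate 1 (adjusted p = 0.098) or 2, *obst-A* without replicate 1 (adjusted p = 0.0638) or 3 (adjusted p = 0.105) and *obst-H* without replicate 2. A replicate block gave 0 calls at P2 and at P4 (adjusted p = 0.0631 and 0.166 for *Cht4*), with 0.716% and 0.261% of all genes called. It ended no other call of 120, while *Peritrophin-15a* was gained at A0 against P4 in wild type (log2 change 1.63, adjusted p = 0.0295). The numbers did not pair the samples: 6 of 24 same-numbered pairs correlated above 0.1 (range -0.426 to 0.47) and 8 of 24 mutant libraries correlated best with their own number. With 3 libraries per group, the spread between pools limits precision for *Cht4*, *Cht9* and the P4 genes.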
